A study of Mus musculus with 20 samples.

Results

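The genes examined were 6 gap junction connexins, Gja1, Gja4, Gja5, Gjb2, Gjb5 and Gjc1. They were taken by symbol from the 55573 genes of the count table, and their levels were followed in all 20 libraries in CPM, read counts scaled to a common library total, with TMM, a method that corrects the totals for a few very abundant genes. RNA was collected from embryoid body (EB) cultures of mouse induced pluripotent stem cell (iPSC) lines. The design asks how cells lacking Nox4, an NADPH oxidase that makes hydrogen peroxide, differ from wild type cells as EBs differentiate. There were 2 wild type lines, WT#1-4 and WT#20D-17, and 2 that lack the gene, Nox4-/-#5-23 and the sister line Nox4-/-#5-8, each with 1 library on days 0, 3, 5, 7 and 14. WT#20D-17 is among the labelled samples but is not one of the lines named in the study's text.

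The making of WT#1-4 and both Nox4-/- lines is described in the study's methods, and that of WT#20D-17 is not given in the sources used here. Embryonic fibroblasts of wild type or Nox4-/- mice were given retroviruses carrying Oct4, Sox2, Klf4 and c-Myc, single colonies were picked as clonal lines, and the lines were kept on fibroblast feeder cells with LIF. LIF was withdrawn, cells were gathered into aggregates in hanging drops, and the aggregates were later plated on gelatin. The methods name CF-1 embryos as a source of embryonic fibroblasts, without saying whether the reprogrammed Nox4-/- cells share that background. Each line is a single clone and each line and day is a single library, so differences between clones and differences between genotypes cannot be told apart within any pair of lines. The p-values from pooled days measure the spread between days of a line, which are not independent cultures of one condition.

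Connexins are membrane proteins that join as hexamers to form a hemichannel, and hemichannels of neighbouring cells dock to form a gap junction channel through which ions and small metabolites pass. Gja1 (Cx43) is the most widely expressed connexin and the main one of pluripotent cells, fibroblasts and working myocardium. Gjc1 (Cx45) is the early connexin of embryonic heart and smooth muscle, Gja4 (Cx37) and Gja5 (Cx40) are connexins of endothelium, with Gja5 also in atrial and conducting heart muscle, and Gjb2 (Cx26) and Gjb5 belong to epithelia, Gjb2 to liver, cochlea and skin and Gjb5 to epidermis and trophoblast. Because gap junctions couple cells electrically and metabolically, the choice of connexins changes as pluripotent cells become heart, vessel or epithelium.

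The 6 genes share a coding feature that the docking of hemichannels rests on. The first extracellular loop carries a fixed set of 3 cysteine codons, which a search of the open reading frames found in 19 of the 20 mouse connexin genes. It is shown here because it marks the 6 genes as 1 family and because stretches of near identity could divide reads between them. The sequences below, from GENCODE transcripts of GRCm38, run from the first to the third of these codons, which are in capitals.
Gja1: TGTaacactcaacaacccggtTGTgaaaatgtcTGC
Gja4: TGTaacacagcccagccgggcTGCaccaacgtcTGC
Gja5: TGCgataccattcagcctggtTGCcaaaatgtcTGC
Gjb2: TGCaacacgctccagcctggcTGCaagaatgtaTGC
Gjb5: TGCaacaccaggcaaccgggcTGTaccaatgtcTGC
Gjc1: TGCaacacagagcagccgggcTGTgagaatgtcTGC
These lie in coding exons, with Gja1 at chr10:56387706-56387741 on the plus strand, Gja4 at chr4:127312774-127312809 on the minus strand, Gja5 at chr3:97050788-97050823 on the plus strand, Gjb2 at chr14:57100558-57100593 on the minus strand, Gjb5 at chr4:127356158-127356193 on the minus strand and Gjc1 at chr11:102800984-102801019 on the minus strand. Over these 36 bases the pairs of genes shared from 63.9% (Gja4 and Gja5) to 80.6% (Gjb5 and Gjc1) of bases. Over the shorter whole reading frame, identity between members lay between 57.2% and 66.4%. The longest run that a transcript of a member had in common with any other connexin transcript was 38 bases, between Gja1 and Gja5, which is shorter than the reads.

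The libraries held between 20294968 and 27708023 counts. Nox4 itself had 3 to 22 counts in WT#1-4, 56 to 203 in WT#20D-17 and at most 2 in any Nox4-/- library, in keeping with the labels of genotype. WT#20D-17 stood apart from the other 3 lines in many genes, as the shares called show, so each comparison is given with that line and with WT#1-4 on its own. Zfp42 (Rex1), a marker of undifferentiated pluripotent cells, was at or under 3 counts on every day in the other 3 lines, day 0 included. Of the 10 pluripotent markers it was the only such gene in WT#1-4. Utf1 was also that low in Nox4-/-#5-8, and Utf1 and Esrrb were in Nox4-/-#5-23. The 10 markers as a whole summed to between 3374 and 5947 CPM in these lines on day 0. The study reports alkaline phosphatase activity and staining for Oct4 and Sox2 in the same lines. What the low Zfp42 means for their pluripotency was not tested. A count of 3 was taken as the floor of detection, and it equalled 0.109 to 0.157 CPM. All 6 connexins had at least 1 library above it, and 4 of the 6 (Gja1, Gjb2, Gjb5 and Gjc1) had a mean of at least 1 CPM over the 20 libraries.

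Gja1 was the most abundant connexin in every library, and it was higher in WT#20D-17 than in the other 3 lines on each of the 5 days. Gja1 (ENSMUSG00000050953, chromosome 10 from 56377330 to 56402513, plus strand) stood at 398, 360, 396, 373 and 258 CPM in WT#20D-17 on days 0, 3, 5, 7 and 14. In WT#1-4 it was at 106, 186, 167, 123 and 120 CPM on the same days. In Nox4-/-#5-8 it was at 160, 199, 165, 153 and 64.6 CPM, and in Nox4-/-#5-23 at 167, 155, 121, 98.9 and 84.5 CPM. The 5 libraries of WT#20D-17 did not overlap those of any other line, and the day with the smallest gap still had 1.81 times the next line. The means over days were 357 ± 57.6 CPM in WT#20D-17, 148 ± 50.2 in Nox4-/-#5-8, 140 ± 34.2 in WT#1-4 and 125 ± 35.6 in Nox4-/-#5-23 (SD over 5 days). The means of the last 3 lines lay within that spread of each other. That SD holds the changes over the days, so it sets no limit on a difference between lines on the same day. Both Nox4-/- lines were above WT#1-4 on day 0 and below it on day 14.

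Gjc1 fell over the course in every line. Gjc1 (ENSMUSG00000034520, chromosome 11 from 102799579 to 102819700, minus strand) went from 23.5 through 13.2, 10.1 and 6.33 to 2.23 CPM in WT#1-4 over days 0, 3, 5, 7 and 14. In WT#20D-17 it went from 39.1 through 27.5, 19.1 and 15.8 to 4.15 CPM. In Nox4-/-#5-8 the values were 26.0, 18.5, 13.2, 10.0 and 4.82 CPM, and in Nox4-/-#5-23 they were 26.8, 15.0, 11.4, 7.24 and 5.10 CPM. Each step from one day to the next was a decrease in all 4 lines. Day 0 was above day 14 by 10.5 times in WT#1-4, 9.44 times in WT#20D-17, 5.40 times in Nox4-/-#5-8 and 5.26 times in Nox4-/-#5-23. WT#20D-17 was the highest line on 4 of the 5 days and WT#1-4 the lowest on all 5, with both Nox4-/- lines between or, on day 14, above. The lines overlapped over the course, with means of 21.1 ± 13.1 CPM in WT#20D-17, 14.5 ± 8.14 in Nox4-/-#5-8, 13.1 ± 8.57 in Nox4-/-#5-23 and 11.1 ± 8.06 in WT#1-4 (SD over 5 days). That SD holds the fall over the days, so it sets no limit on a difference between lines on the same day.

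The endothelial connexins were sparse. Gja4 (ENSMUSG00000050234, chromosome 4 from 127311421 to 127314039, minus strand) had 27, 22, 48, 41 and 29 counts in WT#20D-17 on days 0, 3, 5, 7 and 14, which is 1.11, 0.947, 2.09, 1.82 and 1.52 CPM. The other 15 libraries held between 0 and 2 counts each. Expression of Gja4 was therefore above the floor in 1 line only, and there on every day.

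Gja5 (ENSMUSG00000057123, chromosome 3 from 96904693 to 97077416, plus strand) had another pattern, with WT#1-4 highest on all 5 days. WT#1-4 held 11, 19, 15, 31 and 28 counts on days 0, 3, 5, 7 and 14, or 0.403, 0.762, 0.541, 1.18 and 1.39 CPM. WT#20D-17 held 26 counts on day 7 (1.15 CPM, 95% Wilson interval 0.788 to 1.69) and 0 or 1 count on the other 4 days. Nox4-/-#5-8 held 6, 12, 2, 5 and 3 counts and Nox4-/-#5-23 held 6, 4, 12, 4 and 3. WT#1-4 and the Nox4-/- lines overlapped, since the day 3 library of Nox4-/-#5-8 at 0.506 CPM and the day 5 library of Nox4-/-#5-23 at 0.469 CPM exceeded day 0 of WT#1-4. The Gja5 locus is crossed on the opposite strand by Gpr89 at its start, so these small counts also depend on how reads were assigned to strands, and the strand setting of the counting is not given in the sources used here. Gpr89 held 499 to 1470 counts in all lines. The part of this neighbour in the Gja5 counts was not tested.

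The epithelial connexins were highest in WT#20D-17 on every day. Gjb2 (ENSMUSG00000046352, chromosome 14 from 57098600 to 57104702, minus strand) had 18, 170, 235, 376 and 370 counts there, which is 0.738, 7.32, 10.2, 16.7 and 19.4 CPM on days 0, 3, 5, 7 and 14. WT#1-4 held 0, 3, 6, 5 and 0 counts. Of the 10 Nox4-/- libraries, 9 had no count of Gjb2 and the day 5 library of Nox4-/-#5-8 had 1. Within WT#20D-17 the level on day 14 was 26.3 times that on day 0.

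Gjb5 (ENSMUSG00000042357, chromosome 4 from 127354809 to 127358181, minus strand) was at 5.08, 9.26, 5.80, 10.1 and 25.7 CPM in WT#20D-17. WT#1-4 had 0.114, 0.477, 0.970, 0.607 and 0.248 CPM, Nox4-/-#5-8 had 0.120, 0.797, 0.918, 1.16 and 2.41 CPM, and Nox4-/-#5-23 had 0.186, 0.275, 0.567, 0.311 and 0.401 CPM. WT#20D-17 was above every other library on each day, by at least 5.98 times the next line. Between the other lines the order was not stable, with Nox4-/-#5-8 having 52 counts on day 14 and 3 on day 0.

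**Figure D1:**
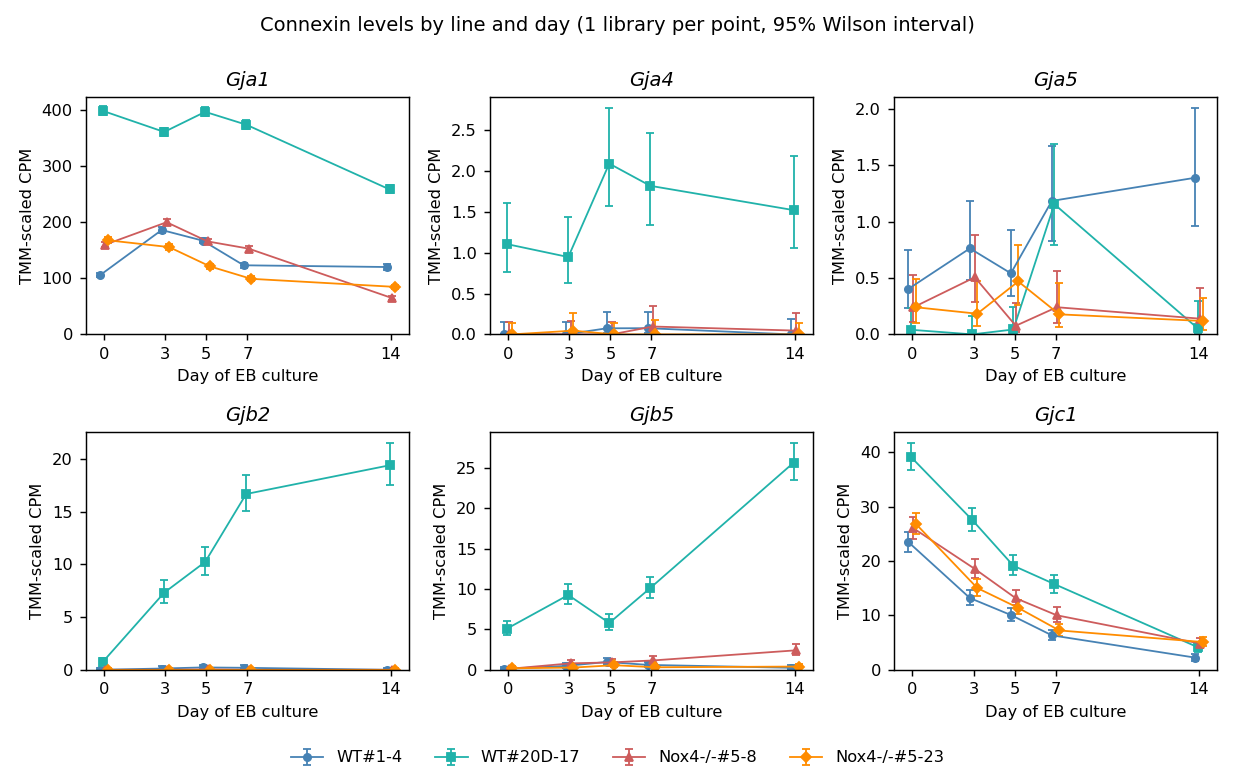
TMM-scaled CPM (vertical axis, linear, own scale in each panel) of the 6 connexins against day of EB culture for the 4 lines. Each point is 1 library and the bars are 95% Wilson intervals of its count, which cover counting error only. Gja1, Gja4, Gjb2 and Gjb5 of WT#20D-17 stand above the other lines on all 5 days, Gja5 is highest in WT#1-4, and Gjc1 falls in all 4 lines, from 23.5 to 39.1 CPM on day 0 to between 2.23 and 5.10 CPM on day 14.

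The comparison that the study made, WT#1-4 against both Nox4-/- lines with days pooled, asks what changes without Nox4. Of the 6 connexins 1, Gja5, was lower in Nox4-/- cells, and Gja1, the most abundant, was not called. Of all 33860 genes tested, 5.62% were called at a false discovery rate (FDR) under 0.01 by edgeR's exact test, 3.97% as lower and 1.65% as higher in Nox4-/- cells. The 1 of 6 connexins called stands against that background. The mean of Gja5 was 0.855 ± 0.419 CPM in WT#1-4 (SD over days) against 0.239 CPM in the 10 Nox4-/- libraries, a log2 difference of -1.84 (FDR 0.000692). With day as a covariate in edgeR's quasi-likelihood test the difference was -1.82 ± 0.47 (SE, FDR 0.00552). The call did not hold with day 7 left out (-1.65, FDR 0.0478), with day 14 left out (-1.43, FDR 0.0283), without Nox4-/-#5-23 (-1.81, FDR 0.0297), or in the quasi-likelihood test without the covariate (FDR 0.0123).

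The other 5 connexins were not called in that comparison. Gja1 had a mean of 140 CPM in WT#1-4 and 137 CPM in Nox4-/- cells, and its log2 difference was -0.03 (FDR 1), or -0.08 ± 0.16 (SE) with day as a covariate. Gjc1 differed by 0.32 (FDR 1) and Gjb5 by 0.55 (FDR 0.950). Gjb2, with 14 counts in all of WT#1-4 and 1 count in all Nox4-/- libraries, had an FDR of 0.0307. Gja4 had 4 counts on each side.

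When WT#20D-17 took the place of WT#1-4, 4 of the 6 connexins were lower in Nox4-/- cells and none was higher. This comparison uses the same Nox4-/- libraries as the one before, so the 2 are not independent. Of all 33860 genes, 25.8% were called, 16.0% lower and 9.83% higher in Nox4-/- cells. Gja1 was 2.61 times as high in WT#20D-17 as the Nox4-/- mean (log2 difference -1.38, FDR 3.9e-08), and with day as a covariate the difference was -1.43 ± 0.15 (SE). Gjb5 was 15.7 times as high (log2 difference -3.96, FDR 1.62e-10, -4.01 ± 0.42 with the covariate). Gja4 and Gjb2 were at or under the floor in every Nox4-/- library, so their folds are lower bounds, and WT#20D-17 was at least 12.0 times higher for Gja4 (FDR 3.08e-25) and at least 87.1 times higher for Gjb2 (FDR 6.81e-27) when each Nox4-/- library was set at 3 counts. Gjc1 differed by -0.61 (FDR 0.341, or -0.53 ± 0.20 with an FDR of 0.0472 with the covariate) and Gja5 by -0.14 (FDR 1), a value that turned to 0.81 (FDR 0.518) with day as a covariate. Without day 7, when WT#20D-17 had its 26 counts, the Gja5 difference turned to 2.69 in favour of Nox4-/- cells (FDR 0.00847).

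The same 4 connexins separated the wild type lines from each other. In the test of WT#20D-17 against WT#1-4, which shares its libraries with both comparisons above, 17.7% of all 33860 genes were called, 9.96% higher and 7.78% lower in WT#20D-17, and 4 of 6 connexins were higher. Gja1 was 2.55 times as high in WT#20D-17 (log2 difference 1.33, FDR 1.97e-06, 1.35 ± 0.18 with day as a covariate) and Gjb5 23.2 times (4.50, FDR 1.58e-09, 4.45 ± 0.58). Gjb2 was 102 times as high in WT#20D-17 (FDR 4.24e-09), a ratio that rests on 14 counts in all of WT#1-4, at most 6 in a library. Gja4, with every WT#1-4 library under the floor, was at least 12.3 times higher when each was set at 3 counts (FDR 3.15e-13). Gjc1 was 1.91 times as high but not called (0.91, FDR 0.369), and with day as a covariate its difference was 0.97 ± 0.22 (FDR 0.0114). Gja5 was lower in WT#20D-17 by -1.73 (FDR 0.275), and was called without day 7 (-4.34, FDR 1.53e-05).

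**Figure D2:**
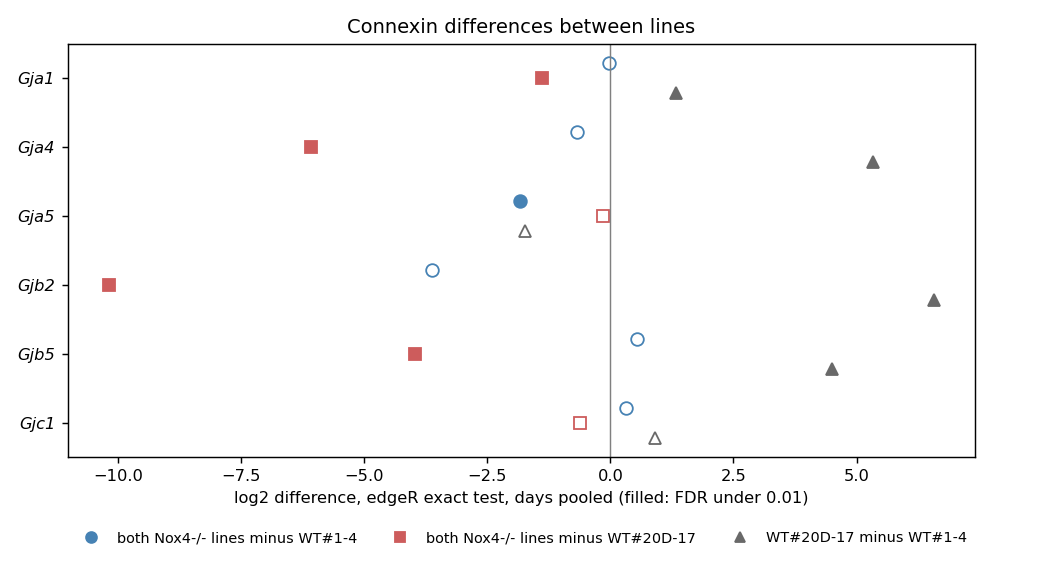
log2 difference (horizontal axis) of each connexin in the 3 pooled comparisons of lines, from edgeR's exact test. Filled symbols have an FDR under 0.01, and the fitted values of Gja4 and Gjb2, which are near 0 counts in some lines, depend on the prior count and are no bounds. Gja1, Gja4, Gjb2 and Gjb5 are filled in both comparisons that involve WT#20D-17, at -1.38 to -10.18 and at 1.33 to 6.57, and Gja5 alone is filled for WT#1-4 against the Nox4-/- lines, at -1.84.

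With the line as the unit, 2 wild type sums against 2 Nox4-/- sums, no connexin was called by edgeR's quasi-likelihood test, and 0% of all 33860 genes were. Gja1 was lower in Nox4-/- cells by a log2 difference of -0.78 ± 0.47 (SE, FDR 0.751) and Gjc1 by -0.17 ± 0.46 (FDR 0.915). Gjb5 stood at -2.90 ± 1.54, Gja5 at -1.16 ± 0.88, Gja4 at -5.33 ± 2.03 and Gjb2 at -9.89 ± 2.85, with FDR between 0.742 and 0.751. At an unadjusted p under 0.05 there were 2 of 6 connexins, Gja4 and Gjb2, and 2239 of all genes. DESeq2 called 1 of the 6, Gjb2 (-10.28, FDR 0.00125), among 783 genes. The wide errors of Gja4, Gjb2 and Gjb5 come with a wild type pair in which WT#20D-17 was high and WT#1-4 was near the Nox4-/- lines.

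The change over the days was tested on all 20 libraries with the line as a term. Of the 6 connexins 1, Gjc1, was called by edgeR's quasi-likelihood F test at an FDR under 0.01, against 16.4% of the 19240 genes that passed the filter on low counts, 8.64% higher and 7.80% lower on day 14 than on day 0. All 6 connexins passed that filter. Gjc1 (FDR 4.56e-06) was below day 0 by -0.70 ± 0.20 on day 3, -1.17 ± 0.20 on day 5, -1.65 ± 0.21 on day 7 and -2.82 ± 0.22 on day 14 (log2 difference ± SE). Gja1 had the same direction late, at -0.67 ± 0.21 on day 14, with an FDR of 0.0474 for the course as a whole. Gjb2 (4.12 ± 0.95) and Gjb5 (2.29 ± 0.54) lay on the other side on day 14. Their FDR for the course as a whole were 0.0302 and 0.0393. For day 14 alone, the same quasi-likelihood fit gave FDR of 0.0041 for Gjb2, 0.00302 for Gjb5 and 0.0189 for Gja1. The Gjb2 value rests on WT#20D-17, the line in which the gene was detected beyond 6 counts. Without that line Gjb2 did not pass the filter. Gja4 and Gja5 had FDR of 0.636 and 0.527 for the course. Outside WT#20D-17 no library held more than 2 counts of Gja4, so its value rests on that line as well.

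Gjc1 was called again in each fit that left out a line or a day. No connexin was called for a course that differed between genotypes. In the test of genotype by day 0 of 6 were called and 0 of 6 had an unadjusted p under 0.05. Of the 19240 genes 0.0104% were called, and DESeq2's likelihood ratio test also called 0 of 6 connexins. With 2 lines per genotype and so few calls, this test cannot show that the courses were alike. The fall of Gjc1 from day 0 to day 14 was smaller in Nox4-/- than in wild type lines by 0.85 on the log2 scale, with an FDR of 0.807.

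**Figure D3:**
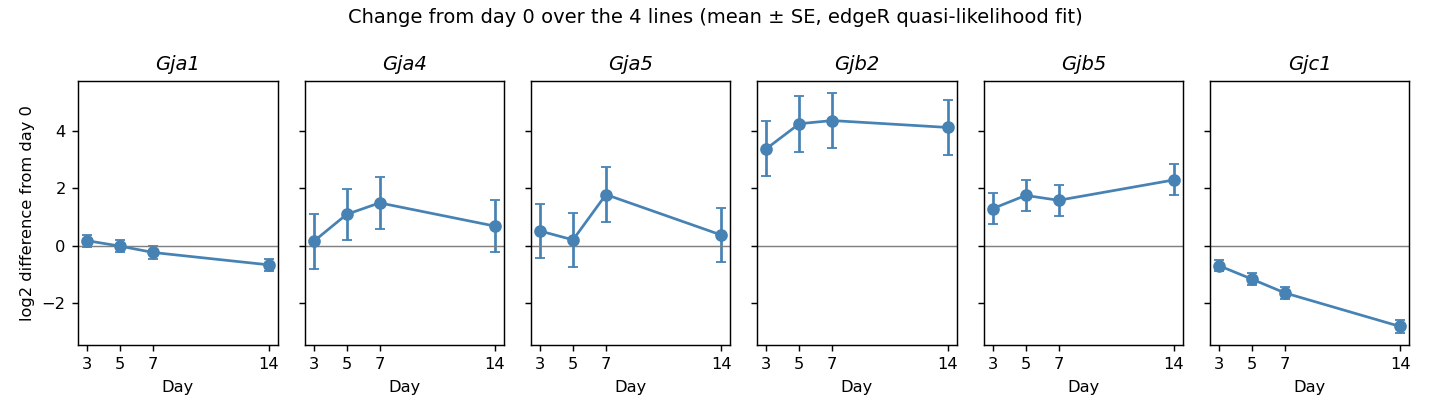
log2 difference from day 0 (vertical axis) on days 3, 5, 7 and 14 (horizontal axis) for each connexin, as the mean over the 4 lines from edgeR's quasi-likelihood fit with line as a term. Bars are ± 1 SE. Gjc1 steps down on each day to -2.82, Gjb2 and Gjb5 lie above 0 throughout, and Gja1 stays within 0.24 of 0 until day 7.

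To compare levels between genes, CPM was divided by the length of the longest coding transcript. On this scale Gja1 made up between 60.8% and 93.0% of the summed level of all 20 connexins in every library. The sum was 133 to 158 CPM per kb in WT#20D-17 and 26.0 to 73.1 CPM per kb in the other 3 lines. Gjc1 was the second component on day 0, at 10.9% of the sum in WT#20D-17, 23.0% in WT#1-4, 18.2% in Nox4-/-#5-8 and 18.0% in Nox4-/-#5-23, and by day 14 it had gone to 1.34%, 2.38%, 8.02% and 7.32%. In WT#20D-17 the share of Gja1 went from 80.3% on day 0 to 60.8% on day 14, while that of Gjb5 went from 1.90% to 11.2% and that of Gjb2 from 0.197% to 6.05%. In WT#1-4 the share of Gja1 moved the other way, from 75.3% to 93.0%.

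**Figure D4:**
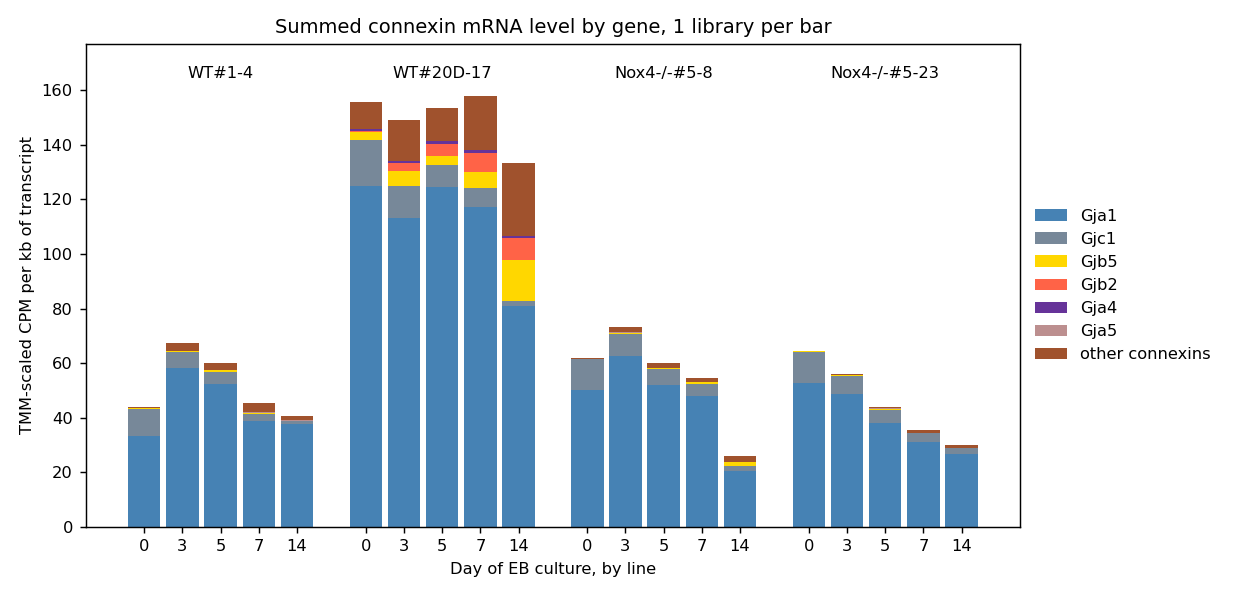
Summed level of the 20 connexin genes in CPM per kb of longest coding transcript (vertical axis), 1 bar per library, stacked by gene and ordered by line and day. Bars of WT#20D-17 reach 133 to 158 and those of the other lines 26.0 to 73.1, and Gja1 is the largest block in all of them.

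Among the 14 other connexin genes, Gjb1 (Cx32), the connexin of hepatocytes, was called lower in Nox4-/- lines than in WT#20D-17 and higher in WT#20D-17 than in WT#1-4. Gjb6 and Gjd2 were also called lower in Nox4-/- lines than in WT#20D-17, with at most 8 counts in any of these libraries. Against WT#1-4 none of the other connexins was called in Nox4-/- lines. Gjb1, Gjb6 and Gjd2 were picked out after their values had been seen, and not all of the 14 are described.

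Gjb2 lies with Gja3 and Gjb6 on chromosome 14, within 99.2 kb from 57034460 to 57133611. Genes of chromosome 14 as a group were higher in WT#20D-17: the median of 542 genes was 0.445 on the log2 scale above the mean of the other lines, relative to all genes, the highest value of any autosome in that line. The chromosomes of the other 5 connexins had medians from -0.034 to 0.094 in WT#20D-17. The part of the chromosome in the Gjb2 difference was not tested.

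Pannexins form channels of single membranes and are not homologous to connexins. Panx1, the one with a mean of at least 1 CPM, fell over the days like Gjc1 (day 14 minus day 0 -1.84 ± 0.36). In the quasi-likelihood fit its FDR was 0.00869 for the course as a whole and 0.000746 for day 14 alone. Panx1 went from 15.1 to 8.50 CPM in WT#20D-17 and from 29.7 to 2.48 CPM in WT#1-4. It was not called in any comparison of lines, with log2 differences of -0.27, 0.50 and -0.78. Panx2 and Panx3 were lower in Nox4-/- lines than in WT#1-4 (2 of 3 pannexins called, with 3.97% of all genes called lower). Against WT#20D-17 only Panx2 was called lower in Nox4-/- lines (-5.14, FDR 4.02e-15), and between the wild type lines only Panx3 was called, lower in WT#20D-17 (-5.67, FDR 0.000899). Panx2 and Panx3 have means under 1 CPM and were picked out after their values had been seen.

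Of 11 scaffold and adhesion partners, genes that hold junctions in place, 5 were lower in Nox4-/- lines than in WT#20D-17 (16.0% of all genes were), none was higher and 6 were not called, and the same 5, among them Cdh1, Dbn1, Ocln and Ctnna1, were higher in WT#20D-17 than in WT#1-4. Cdh1, the E-cadherin whose adhesion precedes gap junction assembly, differed by -2.75 (FDR 2.25e-17) against Nox4-/- lines and by 2.17 between the wild type lines (FDR 0.000121). Dbn1, the actin binding protein drebrin that anchors Gja1, differed by -2.49 (FDR 1.84e-21), and Ocln of the tight junction by -1.36. Against WT#1-4 only Tjp1 (ZO-1), which binds the tail of Gja1, was lower in Nox4-/- lines (-1.23, FDR 0.000252). The median over the 11 genes was -0.70 against WT#20D-17 and -0.03 against WT#1-4, where the median of all genes with at least 1 CPM was 0.018 and 0.031. Over the days 2 of the 11, Cav1 (3.82) and Ocln (1.97), were called higher on day 14, against 8.64% of all genes tested.

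Of 11 kinases that phosphorylate connexins, 5 were called against WT#20D-17 (25.8% of all genes were), 3 lower in Nox4-/- lines, among them Src (-2.38), and 2 higher, Prkca (2.37) and Prkce (1.15). None was called against WT#1-4. Between the wild type lines Src was higher in WT#20D-17 (1.86, FDR 0.000128) and Prkca was lower (-2.80, FDR 1.5e-06). Over the days 2 rose, Src (1.70) and Mapk3 (1.72), and 1 fell, Cdk1 (-1.18). Of all genes tested over the days, 8.64% were called higher and 7.80% lower. Of 7 genes of connexin trafficking and turnover, 2 were lower in Nox4-/- lines than in WT#20D-17 (16.0% of all genes were). They were Smurf2 (-0.67) and Eps15 (-0.47). None of the 7 was called in the other comparisons of lines. Over the days 1 of the 7, Ubqln4, fell (-0.85), against 7.80% of all genes tested.

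The promoters of the 4 connexins that were higher in WT#20D-17 are printed because these genes differed together between lines. The stretches are the 250 bases before the RefSeq start of each gene in GRCm38.p6, at chr10:56377050-56377299 for Gja1, chr4:127314040-127314289 for Gja4, chr14:57104703-57104952 for Gjb2 and chr4:127358165-127358414 for Gjb5, the first on the plus strand and the others on the minus strand. Capitals mark matches on either strand to GGGCGG, the GC box, to TATAAA, the TATA box, and to TGANTCA, the AP-1 site.
Gja1: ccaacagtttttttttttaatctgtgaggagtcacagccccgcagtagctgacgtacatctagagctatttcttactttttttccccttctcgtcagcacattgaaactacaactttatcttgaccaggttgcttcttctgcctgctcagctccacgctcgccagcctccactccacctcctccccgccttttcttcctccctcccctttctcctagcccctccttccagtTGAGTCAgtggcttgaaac
Gja4: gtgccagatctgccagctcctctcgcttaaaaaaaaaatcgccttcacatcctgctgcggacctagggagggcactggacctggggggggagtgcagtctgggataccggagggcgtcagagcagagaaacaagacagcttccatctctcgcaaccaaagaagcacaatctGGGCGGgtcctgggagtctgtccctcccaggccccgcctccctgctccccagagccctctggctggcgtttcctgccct
Gjb2: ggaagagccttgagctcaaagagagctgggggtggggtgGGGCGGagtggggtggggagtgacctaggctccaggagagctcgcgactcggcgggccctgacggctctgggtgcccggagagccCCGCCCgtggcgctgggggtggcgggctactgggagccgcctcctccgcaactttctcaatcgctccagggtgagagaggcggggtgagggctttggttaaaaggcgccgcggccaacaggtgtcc
Gjb5: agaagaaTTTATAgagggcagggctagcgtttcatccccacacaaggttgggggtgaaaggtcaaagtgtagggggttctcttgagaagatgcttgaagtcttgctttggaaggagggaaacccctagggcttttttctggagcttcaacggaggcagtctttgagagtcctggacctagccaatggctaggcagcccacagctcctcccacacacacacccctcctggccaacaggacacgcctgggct
None of these motifs was found in all 4 stretches. GGGCGG was present once in Gja4 and 2 times in Gjb2, TATAAA once in Gjb5, far from the start, and TGANTCA once in Gja1, 19 bases before the start. Among 32851 mouse promoters of the same length, 32.7% held GGGCGG, 12.4% TATAAA and 6.75% TGANTCA. The promoter of Gja5 was matched but is not printed, and Gjc1 had no entry.

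Genes whose levels followed a connexin most closely were found by Pearson correlation of log2(CPM + 1) over the 20 libraries among the 14579 genes whose mean reached 1 CPM. The libraries share lines and days, so these are descriptions. For Gja1 they were Hsf2 (r = 0.946), Utp14b (0.940) and Cdh24 (0.937), and over the 15 libraries without WT#20D-17 these were 0.84, 0.81 and 0.82. For Gjb2 they were BC025446 (0.996), Fcgr3 (0.994) and Pla2g12b (0.992), of which the first and second fell to 0.34 and 0.51 without WT#20D-17. For Gjb5 they were Gm11127 (0.971), Hkdc1 (0.969) and Gm3020 (0.965), which fell to 0.79, 0.75 and 0.65. For Gjc1 they were Mir17hg (0.962), the host transcript of a miRNA cluster, Trp53 (0.959) and Adat1 (0.959), and these stayed at 0.95, 0.95 and 0.96 without WT#20D-17. Among the members, Gjb2 and Gjb5 had r = 0.92 over 20 libraries and 0.18 without WT#20D-17, and Gja1 with Gjc1 had 0.56 and 0.58.

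Cell type markers differed between lines as well, not all in the order of the connexins. In the comparisons used here, 16.0% of all genes were called lower and 9.83% higher in Nox4-/- lines against WT#20D-17, and 3.97% lower and 1.65% higher against WT#1-4. RNA of a whole culture cannot tell fewer cells of a type from less RNA per cell. In WT#20D-17 the 10 endoderm markers summed to 147 CPM on day 0 and 1848 CPM on day 14, against 0.190 to 4.89 CPM in the other lines, where Alb and Hnf4a were at or under 3 counts on every day, and 9 of 10 were called lower in Nox4-/- lines than in WT#20D-17 and 0 of 10 against WT#1-4, where 4 of 10 had an unadjusted p under 0.05 in edgeR's exact test. The 10 surface epithelium and trophoblast markers summed to 40.2 to 266 CPM in WT#20D-17 and 5.74 to 56.3 CPM elsewhere, and 5 of 10 were called lower in Nox4-/- lines than in WT#20D-17, while against WT#1-4 there was 1 lower and 1 higher. The 8 arterial endothelial markers summed to 111 to 398 CPM in WT#20D-17 and 43.0 to 110 CPM elsewhere (5 of 8 lower and 1 higher in Nox4-/- lines than in WT#20D-17, and 0 lower and 1 higher than in WT#1-4). Dll4 and Sox17 were at or under 3 counts on every day in both Nox4-/- lines. The 10 general endothelial markers had another order in summed CPM. They lay at 345 to 549 CPM in WT#1-4, 165 to 323 CPM in Nox4-/- lines and 55.9 to 203 CPM in WT#20D-17. Gene by gene that order did not hold. In Nox4-/- lines 5 of 10 were called lower and 3 higher than in WT#20D-17, and 3 lower and 1 higher than in WT#1-4.

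Cardiac markers (8 of 10 called lower in Nox4-/- lines than in WT#20D-17, and 3 of 10 than in WT#1-4) rose from 9.26 CPM on day 0 to 358 CPM on day 14 in WT#20D-17, and lay between 113 and 227 CPM in WT#1-4 and between 20.8 and 68.4 CPM in Nox4-/- lines, where Myh6, Nkx2-5, Actc1, Nppa and Tbx5 were at or under 3 counts on every day. Fibroblast or feeder markers rose from 28.8 CPM on day 0 to 3050 CPM on day 14 in WT#20D-17. In WT#1-4 they fell from 417 CPM on day 0 to 192 CPM on day 14. They lay between 19.8 and 74.1 CPM in Nox4-/- lines. Of these 10 markers, 7 were lower in Nox4-/- lines in each of the comparisons with WT#1-4 and WT#20D-17. Pluripotent markers summed to 3875 CPM on day 0 and 103 CPM on day 14 in WT#20D-17, while on day 14 they were still at 1346 CPM in WT#1-4, 2092 CPM in Nox4-/-#5-8 and 3985 CPM in Nox4-/-#5-23. Gene by gene the order was another one, with 7 of 10 pluripotent markers called lower and 2 higher in Nox4-/- lines than in WT#20D-17, and 7 higher and 1 lower in WT#20D-17 than in WT#1-4. Whether Pou5f1 and Sox2 in that sum include reads of the reprogramming viruses was not tested. The part of cell composition in the connexin differences was not tested.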

How the data were processed

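Total RNA of 20 EB cultures was sequenced, 1 library per line and day. The authors made stranded mRNA libraries, trimmed the paired-end reads with fastx_toolkit, mapped them to mm10 (GRCm38) with STAR 2.6.0c and deposited RSEM 1.3.1 expected counts per gene without normalization. Tools and builds were also listed in the submitters' processing notes. Reads that fit several genes are divided by RSEM, and 10038 genes had values with decimals. The labels' protocol lists another last day than the titles, which give day 14, used here.

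Expected counts were rounded. Symbols and positions came from GENCODE M21 (55480 of 55573 identifiers matched), and promoters from RefSeq. DESeq2 1.42.0 and edgeR 4.0.16, with limma 3.58.1, were run in R 4.3.3. Lines were compared with edgeR's exact test after TMM, on the 33860 genes detected in any library, following the test in the study's methods. Calls were made at an FDR under 0.01, a threshold the study gives for edgeR in a figure legend, where its methods give a stricter one (0.001, tried as an alternative). Genotype with the line as unit used the quasi-likelihood test on sums over days. Changes over the days and genotype by day used quasi-likelihood F tests on 19240 genes passing filterByExpr, with line as the replicate block, because libraries with the same replicate number in a genotype come from the same cell line. Wilson intervals (95%) and the floor of 3 counts cover counting error only.

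The members, the gene lists and the rule for named genes were chosen with earlier results of these data known. The rule named the 6 members, other connexins and pannexins with a mean of at least 1 CPM, up to 4 genes called with the largest change in each list, the 3 genes most like each member with a mean of at least 1 CPM, and Nox4. Some genes that the rule names are not reported here. Alternatives covered the test, threshold, normalization, filter, block, and each line and day left out.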

Additional observations from a re-analysis of the deposited data

Results flagged for a closer look

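Single days that stood apart from the rest of a group were looked for among the lines and the pooled Nox4-/- libraries, in 23 groups of 5 or 10 libraries, and 4 were found. Chance flags about 1 in 20 such groups, and these libraries differ by day as well. Gja5 on day 7 in WT#20D-17 was at 1.15 CPM (26 counts) where the other 4 days had 0 or 1 count. Gja1 on day 14 in WT#20D-17 was at 258 CPM, below the other 4 days. Gjb5 on day 14 was at 25.7 CPM in WT#20D-17, above its other days, and at 2.41 CPM in Nox4-/-#5-8, above the other 9 Nox4-/- libraries. No connexin was found whose course differed between genotypes by the test of genotype by day.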

How the results depend on the processing

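The 4 connexins called in each of the 2 comparisons with WT#20D-17 were called under every alternative run for those comparisons, and the count was 4 or, without day 7, 5. Gja5 is the fifth there. Against the Nox4-/- lines without day 7 its difference changed sign, to 2.69, and with a line or day left out it ranged from -0.57 to 2.69. For WT#1-4 against the Nox4-/- lines the count of 1 connexin became 2 at an FDR under 0.05, 0 in the quasi-likelihood test with days pooled, and 0 to 1 with a line or day left out. With the line as the unit the count of 0 became 1 in DESeq2, and it stayed 0 with a line or day left out, where a lone line was assumed to vary like the others. For change over the days the count of 1 became 4 at an FDR under 0.05, 2 in DESeq2's likelihood ratio test and 1 to 2 with a line or day left out. For genotype by day it was 0 throughout. Without the replicate block of line, 1 connexin was called over the days and 0 for genotype by day, and no call of a connexin changed. Leaving out a line was not run for WT#1-4 against WT#20D-17, which has 1 line on each side.

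Counts over all genes moved by more than 1.5 times in some alternatives. For WT#1-4 against the Nox4-/- lines 1903 genes became 1221 at an FDR under 0.001, 1228 in the pooled quasi-likelihood test, 1267 without day 5 and 1114 without day 7. With the line as the unit 0 became 783 in DESeq2 and 83 without WT#1-4. Over the days 3163 became 1338 and 5304 at an FDR under 0.001 and 0.05, 5095 in DESeq2, 994 without the replicate block, and 610 to 4002 with a line or day left out. For genotype by day 2 became 192 in DESeq2, 11 with the nonzero filter, 5 at an FDR under 0.05 and 666 without WT#1-4. The causes were not tested. Depth limits Gja4, Gja5 and Gjb2, where 3 counts in a library are 0.109 to 0.157 CPM. With 2 lines per genotype and 1 library per line and day, no fit here separates genotype from clone.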
